A study of Mus musculus with 12 samples.

Results

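Liver RNA of 3 Car KO/hPXR mice given CITCO was compared with that of 3 wild-type (WT) mice given corn oil, which are 6 of the 12 libraries in the series. The libraries were chosen by the genotype and treatment in their labels. In Car KO/hPXR mice the mouse Car gene is deleted and human PXR stands in place of the mouse receptor, on a C57BL/6NTac background according to the methods. Animals of both groups were adult males that were injected intraperitoneally once a day for 4 days and killed on day 5, with CITCO at 10 mg/kg by the labels (the methods give 10 or 50 mg/kg) or with corn oil alone. Genotype and treatment both differ between the groups, and no Car KO/hPXR mice given corn oil are among the 12 libraries, so an effect of CITCO and an effect of the genotype cannot be told apart here. WT and hCAR/hPXR mice given CITCO, 3 libraries each, are used below for side values; hCAR/hPXR mice carry human CAR and human PXR in place of both mouse receptors.

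CAR and PXR are nuclear receptors that sense drugs and other foreign chemicals in the hepatocyte. Once activated they bind DNA as dimers with RXR and switch on genes for oxidation by cytochromes P450, for conjugation and for export, with Cyp2b10 and Cyp3a11 as textbook mouse targets. CITCO is an agonist that favours human over mouse CAR and can also act on human PXR.

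Depth ran from 1451203 to 2341557 counts in WT corn oil and from 1172224 to 1499487 counts in Car KO/hPXR. Expression is given as CPM, counts scaled to library size with edgeR's TMM factors, and 3 counts made 1.34 to 2.5 CPM in these 6 libraries. The share of counts on mitochondrial genes was 10.6% to 13.4% in WT corn oil and 10.5% to 13.9% in Car KO/hPXR. Hepatocyte markers summed to between 46330 and 53560 CPM in WT corn oil and between 46670 and 50210 in Car KO/hPXR. Over the 500 most different genes of each pair of libraries, the log2 distance was 1.71 to 1.86 between WT corn oil libraries, 1.91 to 1.98 between Car KO/hPXR libraries and 1.77 to 2.10 across the groups, so that the ranges overlapped.

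Mouse Nr1i2 and Nr1i3, the genes for PXR and CAR, were looked at first, as the genotype should show in them: only mouse genes were counted. Nr1i2 (ENSMUSG00000022809, GRCm38 chromosome 16, 38248323 to 38294824, minus strand) was counted at 89.1, 70.5 and 93.6 CPM in the WT corn oil libraries and at 1.27, 0 and 0 CPM in the Car KO/hPXR libraries. Summed over libraries this was 454 counts against 2, a level 171-fold lower in Car KO/hPXR (exact 95% interval for counting error 47.0 to 1410, adjusted p = 3.77e-08 in edgeR's quasi-likelihood F test, adjusted by Benjamini-Hochberg over the 8594 genes). Nr1i3 (ENSMUSG00000005677, chromosome 1, 171213970 to 171220701, plus strand) was counted at 129, 73.3 and 130 CPM in WT corn oil and at 1.91, 1.67 and 4.11 CPM in Car KO/hPXR. This was a log2 fold change of -5.42 ± 0.48 (SE), or 42.9-fold lower (adjusted p = 4.67e-06). The 3 WT corn oil libraries held both mouse transcripts and the 3 Car KO/hPXR libraries held almost none, as their labels imply. Levels were as low in hCAR/hPXR mice given CITCO, at 0.193 ± 0.334 CPM for Nr1i2 and 2.01 ± 2.64 CPM for Nr1i3 (SD, n = 3). These 2 genes therefore do not tell Car KO/hPXR from hCAR/hPXR libraries, and human CAR and PXR were not counted. In WT mice given CITCO the levels were 80.2 ± 7.57 CPM for Nr1i2 and 115 ± 32.9 CPM for Nr1i3 (SD, n = 3).

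Tomm40l, which codes for a protein related to the Tom40 channel of the outer mitochondrial membrane, was the only other gene called among those within 500 kb of the targeted genes. It lies on the minus strand of chromosome 1 (ENSMUSG00000005674, 171216011 to 171222514) and overlaps Nr1i3, and its 3' end falls inside the Nr1i3 gene. The sources used here do not state whether counting used strand, so reads of Tomm40l and Nr1i3 may not be separable. Tomm40l had 15, 40 and 17 counts in WT corn oil and 2, 0 and 0 counts in Car KO/hPXR, 27.1-fold lower over the summed counts (exact 95% interval for counting error 7.23 to 228, adjusted p = 0.0483). The hCAR/hPXR libraries, in which mouse Nr1i3 stood at 2.01 ± 2.64 CPM, had 7.02 ± 2.51 CPM of Tomm40l (SD, n = 3), against 0.424 ± 0.734 in Car KO/hPXR. This call was the least stable of the 4: it held in 6 of 14 alternative analyses, 11 of which tested the gene. Its adjusted p ran from 1.87e-07, with no filter on low counts and 95 genes called, to 0.277. The call was lost without WT corn oil replicate 2 (adjusted p = 0.257) and without Car KO/hPXR replicate 1, 2 or 3 (adjusted p = 0.0788, 0.195 and 0.277). Of the other 19 genes tested within 500 kb of Nr1i3, and of the 9 within 500 kb of Nr1i2, none was called. Those near Nr1i2 had log2 fold changes between -0.17 and 0.58, and the 19 near Nr1i3 between -2.29 and 5.18. Both ends of the second range were genes with few counts, singled out after their values were seen. Pcp4l1, 17702 bases from Nr1i3, had 8, 4 and 3 counts in WT corn oil and 0, 0 and 2 in Car KO/hPXR, without overlap (-2.29 ± 1.06, unadjusted p = 0.0445, adjusted p = 0.864). The pseudogene Rpl27-ps1 had 0 counts in each WT corn oil library and 0, 0 and 11 in Car KO/hPXR, so that its value rests on Car KO/hPXR replicate 3 (unadjusted p = 0.0282, adjusted p = 0.827, and a log2 fold change of 0 without that library).

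**Figure D1:**
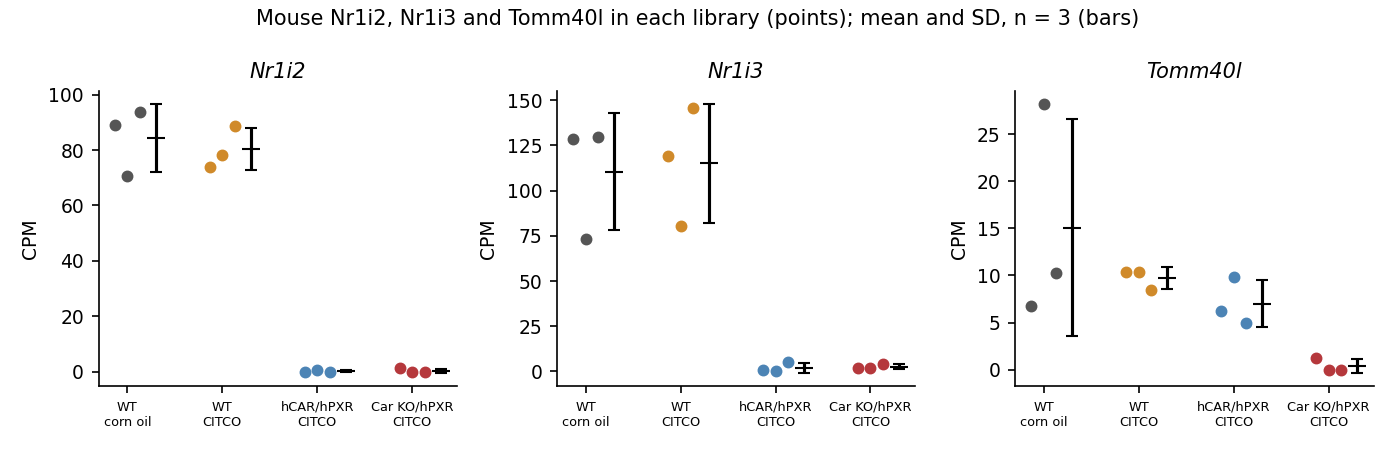
Expression in CPM of Nr1i2, Nr1i3 and Tomm40l in each library of the 4 groups (points), with the mean and SD of 3 libraries (bars). Nr1i2 and Nr1i3 are near 0 in all hCAR/hPXR and Car KO/hPXR libraries, and Tomm40l is at or below 1.27 CPM in Car KO/hPXR libraries alone.

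Calls needed an adjusted p below 0.05 together with more than a 1.5-fold difference, and 4 of the 8594 genes (0.0465%) met both. All 4 were lower in Car KO/hPXR mice: Nr1i2, Nr1i3, Tomm40l and the P450 gene Cyp2c50. Unadjusted p-values under 0.05 were found for 249 genes with higher expression (2.90%) and 232 with lower expression (2.70%). The libraries of the groups did not overlap for 11.6% of genes, 484 of them higher and 516 lower in Car KO/hPXR. With 3 libraries per group such separation was common, so that lack of overlap alone says little about a single gene. The median log2 fold change of all genes was 0.0003, 87.4% of genes had an absolute log2 fold change under 0.585 (1.5-fold), and the median standard error was 0.309. By DESeq2's Wald test the count was 12, of which Nr1i2, Nr1i3 and Cyp2c50 were shared with the 4. The same fit called 22 genes for Car KO/hPXR CITCO against WT CITCO (0.256%), 20 for WT CITCO against WT corn oil (0.233%) and 50 for the hCAR/hPXR against the Car KO/hPXR mice, all on CITCO (0.582%). These comparisons share libraries with the main one.

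**Figure D2:**
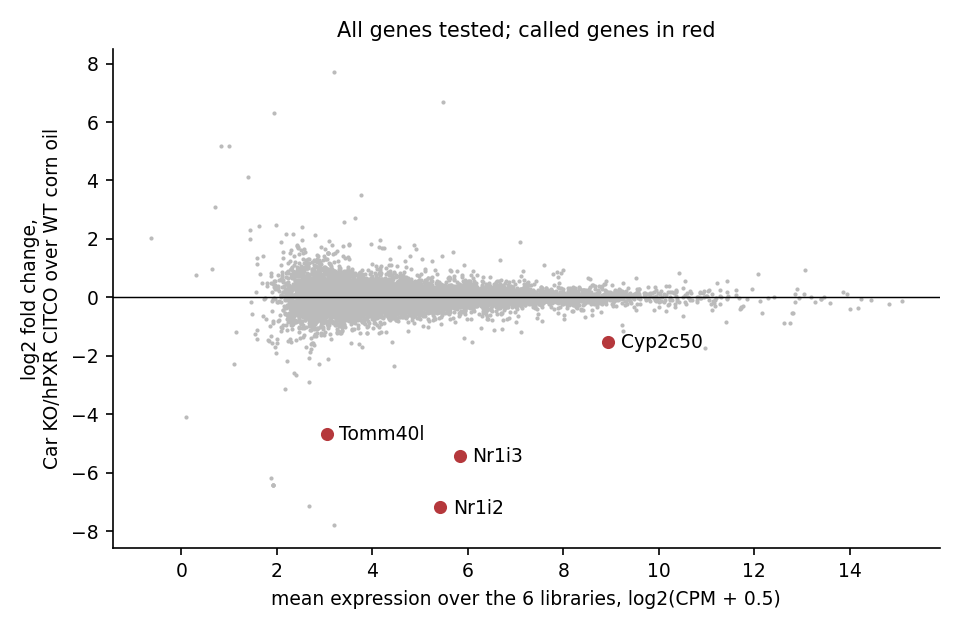
Log2 fold change of Car KO/hPXR CITCO over WT corn oil (vertical axis) against mean expression over the 6 libraries as log2(CPM + 0.5) (horizontal axis), 1 point per gene for the 8594 genes tested. The 4 called genes are in red, all below 0; points spread most widely at low expression.

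Cyp2c50 was the one called gene away from the targeted loci. It codes for a hepatic P450 of the Cyp2c family, whose enzymes oxidise drugs, steroids and arachidonic acid, and lies on chromosome 19 (ENSMUSG00000054827, 40089688 to 40113950, plus strand). Its neighbours Cyp2c37 (39992424 to 40012243, plus strand) and Cyp2c54 (40037940 to 40073827, minus strand) are close paralogs, and were singled out after their values were seen. The 250 bases before the RefSeq start (GRCm38.p6, plus strand) of Cyp2c50 (chr19:40089429-40089678) and Cyp2c37 (chr19:39992174-39992423) are shown because both genes had lower values, beside those of Cyp2c29 (chr19:39286835-39287084), a family member whose level overlapped between the groups. Cyp2c54 also had lower values, but the promoter source used here holds no entry for it. Capitals mark nuclear receptor half-sites (AGNTCA on either strand).
Cyp2c50: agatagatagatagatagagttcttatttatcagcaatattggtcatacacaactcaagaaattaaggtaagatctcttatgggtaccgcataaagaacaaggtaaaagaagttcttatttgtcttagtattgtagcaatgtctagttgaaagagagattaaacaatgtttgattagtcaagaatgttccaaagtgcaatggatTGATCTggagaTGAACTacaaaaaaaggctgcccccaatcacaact
Cyp2c37: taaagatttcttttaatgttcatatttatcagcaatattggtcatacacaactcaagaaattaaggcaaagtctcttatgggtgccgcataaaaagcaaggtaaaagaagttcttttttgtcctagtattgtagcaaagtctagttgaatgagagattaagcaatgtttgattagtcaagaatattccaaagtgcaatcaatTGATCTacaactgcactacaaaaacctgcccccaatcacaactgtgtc
Cyp2c29: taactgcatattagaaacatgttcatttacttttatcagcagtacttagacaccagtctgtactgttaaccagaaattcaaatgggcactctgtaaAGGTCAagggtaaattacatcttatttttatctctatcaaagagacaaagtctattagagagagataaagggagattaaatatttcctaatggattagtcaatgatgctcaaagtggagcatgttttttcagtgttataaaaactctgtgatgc
The Cyp2c50 and Cyp2c37 stretches were identical at 84.3% of aligned positions, against 56.2% for Cyp2c50 and Cyp2c29. Cyp2c50 held 2 half-sites, whose far ends lie 46 and 35 bases before the start, and Cyp2c37 held 1, 48 bases before its start; these read on the opposite strand. The single half-site of Cyp2c29 began 154 bases before its start. Such a half-site was found in 41.3% of the 32851 promoter stretches of this length. The 2 half-sites of Cyp2c50 form a direct repeat spaced by 5 bases (AGNTCANNNNNAGNTCA), a motif that was searched after the sequence was seen, is in 0.198% of promoters and was not found in the other two. None of the 3 held a direct repeat spaced by 3 (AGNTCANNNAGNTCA, 0.0517% of promoters) or by 4 bases (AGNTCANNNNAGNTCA, 0.103%) or an everted repeat spaced by 6 (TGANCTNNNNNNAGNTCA, 0.0304%), which says only that these letters are not in these windows.

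Cyp2c50 was counted at 842, 646 and 698 CPM in WT corn oil and at 224, 303 and 231 CPM in Car KO/hPXR. The groups did not overlap. The log2 fold change was -1.53 ± 0.20 (SE, 95% interval -1.96 to -1.10), or 2.89-fold lower (adjusted p = 0.00167), and the call held in 14 of 14 alternatives. WT mice given CITCO had 703 ± 67.1 CPM and hCAR/hPXR mice 604 ± 181 CPM (SD, n = 3). Against these groups the Car KO/hPXR level was also lower, by a log2 fold change of -1.48 ± 0.20 against WT CITCO (adjusted p = 0.002), while hCAR/hPXR stood 1.26 above Car KO/hPXR (adjusted p = 0.00561).

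Cyp2c54 was counted at 285, 148 and 144 CPM in WT corn oil and at 87.0, 107 and 60.0 CPM in Car KO/hPXR, again without overlap. Its log2 fold change was -1.19 ± 0.26 (95% interval -1.74 to -0.64), with an adjusted p of 0.221 that became 0.0166 with DESeq2. Over the alternatives the adjusted p ranged from 6.87e-07, with no filter on low counts, to 0.649. Cyp2c37 stood at 201, 96.6 and 88.8 CPM in WT corn oil and at 74.3, 69.3 and 32.9 CPM in Car KO/hPXR. Its log2 fold change was -1.13 ± 0.29 (95% interval -1.74 to -0.52, adjusted p = 0.346), and it differed more from WT mice given CITCO (-1.68 ± 0.29, adjusted p = 0.0219). WT corn oil replicate 1 was the highest of its group for all 3 genes. Without it the log2 fold changes were -1.41 for Cyp2c50, -0.79 for Cyp2c54 and -0.64 for Cyp2c37.

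These genes share sequence where the 3' libraries were read. Of the 351 words of 50 bases in the last 400 bases of the Cyp2c50 transcript, 14.8% also occur in Cyp2c37 and 11.1% in Cyp2c54, and none in another Cyp2c gene. RSEM divides reads that fit several genes, and none of the 6 deposited values of Cyp2c50 was a whole number. The split among the 3 is therefore uncertain. Their sum, which such a split does not alter, was between 890.5 and 1328 CPM in WT corn oil and between 324 and 479 CPM in Car KO/hPXR. The sum was 1093 ± 122 CPM in WT mice given CITCO and 975 ± 230 in hCAR/hPXR mice (SD, n = 3). The other 9 Cyp2c genes tested had log2 fold changes on both sides of 0.

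**Figure D3:**
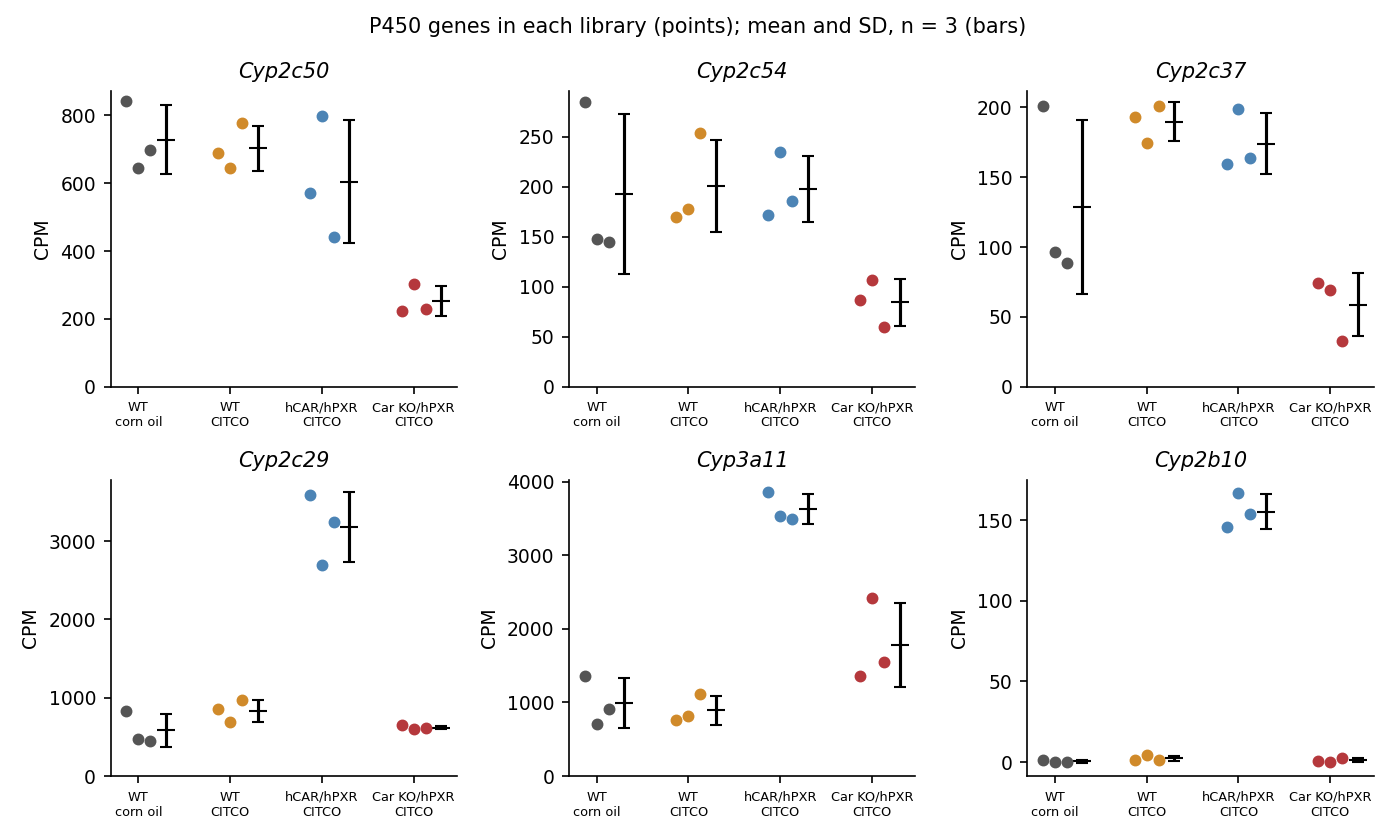
Expression in CPM of 6 P450 genes in each library of the 4 groups (points), with the mean and SD of 3 libraries (bars). Cyp2c50, Cyp2c54 and Cyp2c37 are lowest in the Car KO/hPXR group, while Cyp2c29, Cyp3a11 and Cyp2b10 are highest in hCAR/hPXR mice.

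Of the 19 Cyp2a, Cyp2b, Cyp2c and Cyp3a genes tested (of 33 listed), 12 had higher and 7 lower values, with a median log2 fold change of 0.10. Cyp2c50 was the single member called. Unadjusted p was under 0.05 for 4 higher and 3 lower members. The libraries of the groups did not overlap for 4 of the 19, all lower, against 11.6% of all genes in either direction. These 4 include Cyp2c50, Cyp2c54 and Cyp2c37, which share sequence at their 3' ends. Cyp2b10, the classical CAR target, had 3, 0 and 0 counts in WT corn oil and 1, 0 and 3 in Car KO/hPXR. Both groups were at the floor, whereas hCAR/hPXR mice given CITCO had 155 ± 10.6 CPM (SD, n = 3). Cyp2c29, another gene known to respond to CAR, stood at 825, 475 and 446 CPM in WT corn oil and at 647, 601 and 609 CPM in Car KO/hPXR. The groups overlapped, with a log2 fold change of 0.09 whose 95% interval ran from -0.36 to 0.54, against 3175 ± 445 CPM in hCAR/hPXR mice. Cyp2c67 and Cyp2c70 also lay near 0, at log2 fold changes of -0.20 and 0.10. Cyp2a5, a coumarin hydroxylase, was at a log2 fold change of 0.84 (95% interval 0.14 to 1.54) without a call.

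All 4 Cyp3a genes tested had higher values in Car KO/hPXR, and none was called. Cyp3a11, the main PXR-responsive P450 of mouse liver, stood at 1365, 702 and 907 CPM in WT corn oil and at 1358, 2423 and 1551 CPM in Car KO/hPXR. The groups overlapped through WT corn oil replicate 1. The log2 fold change was 0.84 ± 0.25 (95% interval 0.32 to 1.36, unadjusted p = 0.00322, adjusted p = 0.491), and the level in hCAR/hPXR mice was 3628 ± 206 CPM. Cyp3a25 had 386 ± 113 CPM in WT corn oil and 570 ± 105 in Car KO/hPXR, a log2 fold change of 0.56 (adjusted p = 0.731). Cyp3a59 had 14.5 ± 8.82 and 36.1 ± 18.96 CPM, a log2 fold change of 1.25 (adjusted p = 0.643), and Cyp3a13 had 128 ± 24.4 and 170 ± 27.6 CPM, a log2 fold change of 0.40 (all SD, n = 3). Summed over all 9 Cyp3a genes listed, those under the filter included, WT corn oil libraries held between 1185 and 2059 CPM and Car KO/hPXR libraries between 2052 and 3378.

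**Figure D4:**
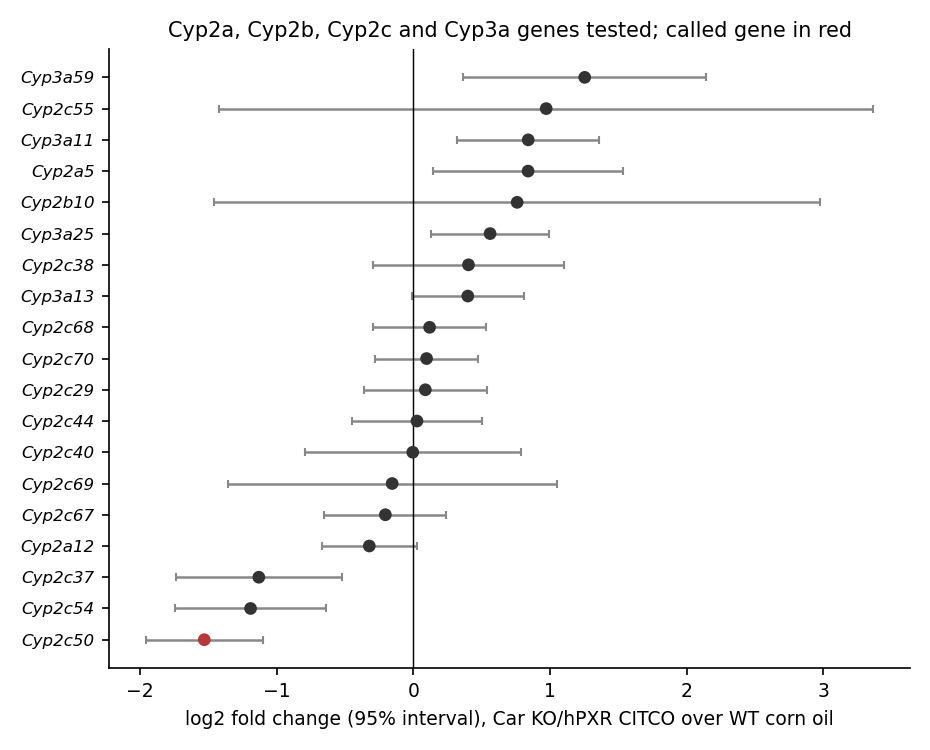
Log2 fold change with its 95% interval for each of the 19 Cyp2a, Cyp2b, Cyp2c and Cyp3a genes tested. Cyp2c50, in red, is the lowest and the one called; the wide intervals belong to genes with few counts, such as Cyp2b10.

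Other parts of drug metabolism showed no called gene against WT corn oil. The 24 other P450s tested split into 13 higher and 11 lower (median log2 fold change 0.04), the 29 P450 partners and other phase I enzymes into 16 and 13 (0.12), the 43 conjugating enzymes into 25 and 18 (0.05), and the 20 transporters into 12 and 8 (0.07). Cyp17a1, a steroid hydroxylase with the lowest p of the other P450s, had 11, 7 and 24 counts in WT corn oil and 80, 13 and 20 in Car KO/hPXR, with overlap (log2 fold change 1.72 ± 0.60, adjusted p = 0.711). Papss2, which makes the sulphate donor of sulphotransferases, stood at 198, 191 and 149 CPM in WT corn oil and at 308, 281 and 287 CPM in Car KO/hPXR. These libraries did not overlap, with a log2 fold change of 0.70 ± 0.17 (adjusted p = 0.292, and 0.0493 with DESeq2). Over the alternatives the adjusted p ranged from 0.0409, with no filter on low counts, to 0.722. Against WT CITCO, Papss2 was called (log2 fold change 0.85 ± 0.17, adjusted p = 0.0436). Ugt3a1, a UDP-glycosyltransferase, stood at 49.7, 46.5 and 47.1 CPM in WT corn oil and at 32.4, 19.2 and 18.9 CPM in Car KO/hPXR (log2 fold change -1.002 ± 0.23, adjusted p = 0.262). The N-acetyltransferase gene Nat8 was at a log2 fold change of -0.90 ± 0.21 (adjusted p = 0.292) and the aldehyde oxidase Aox3 one of -0.49 ± 0.19 (adjusted p = 0.732). Of the transporters, Slc10a2, a sodium-dependent bile acid transporter, had the lowest p, with 7, 9 and 7 counts in WT corn oil and 26, 8 and 12 in Car KO/hPXR (log2 fold change 1.33 ± 0.50, adjusted p = 0.732). For Slc10a1, the bile acid uptake transporter NTCP, the log2 fold change was 0.46 (adjusted p = 0.802).

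The Ugt1a genes share their last exons, so that 3' reads can be placed on any of them. Ugt1a1, which conjugates bilirubin, had 267, 0 and 0 counts in WT corn oil and 0, 0 and 103 in Car KO/hPXR and so gives no level of its own. The sum over the 8 Ugt1a genes listed was between 1580 and 1637 CPM in WT corn oil and between 1755 and 1973 CPM in Car KO/hPXR, without overlap. Reads placed on a Ugt1a gene outside this list are not in the sum.

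Among 16 bile acid synthesis genes, 7 were higher and 9 lower (median -0.07). Cyp7a1, the rate-limiting enzyme of that pathway, stood at 55.1, 96.6 and 101 CPM in WT corn oil and at 62.9, 44.3 and 40.2 CPM in Car KO/hPXR, which overlapped (log2 fold change -0.76 ± 0.32, adjusted p = 0.827). Of 11 heme synthesis and breakdown genes, 5 were higher and 6 lower (median -0.04). Alas1, the first enzyme of heme synthesis, stood at 186, 51.5 and 129 CPM in WT corn oil and at 290, 262 and 239 CPM in Car KO/hPXR. The groups did not overlap, with a log2 fold change of 1.09 ± 0.32 (adjusted p = 0.491); WT mice given CITCO had 411 CPM on average, called against WT corn oil (log2 fold change 1.73, adjusted p = 0.0264).

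Among the 22 nuclear receptors tested, 11 were higher and 11 lower (median 0.01), with Nr1i2 and Nr1i3 as the 2 called. The 17 hepatocyte transcription factors split into 9 and 8 (median 0.01). Onecut1, a factor of hepatocyte and biliary development, stood at 7.61, 7.76 and 23.5 CPM in WT corn oil and at 47.7, 41.7 and 43.5 CPM in Car KO/hPXR. The groups did not overlap, yet the difference (log2 fold change 1.79 ± 0.35, 95% interval 1.05 to 2.53) had an adjusted p of 0.114, with 0.0031 by DESeq2 and 0.00254 without WT corn oil replicate 3, its highest control. The alternatives ranged from 8.32e-08, with no filter on low counts, to 0.607. WT mice given CITCO had 116 ± 27.1 CPM (log2 fold change over WT corn oil 3.17, adjusted p = 0.000195) and hCAR/hPXR mice 27.9 ± 8.88 CPM. Foxa2, a pioneer factor of liver, stood at 25.5, 22.6 and 19.9 CPM in WT corn oil and at 52.1, 41.7 and 40.2 CPM in Car KO/hPXR (log2 fold change 0.98 ± 0.21, adjusted p = 0.221). Its level was 49.5 ± 6.95 CPM in WT mice given CITCO and 20.7 ± 2.26 CPM in hCAR/hPXR mice (SD, n = 3). Bcl6, a repressor, stood at 99.9, 91.7 and 106 CPM in WT corn oil and at 24.8, 36.7 and 43.5 CPM in Car KO/hPXR (log2 fold change -1.52 ± 0.36, adjusted p = 0.292, and 0.0102 in a fit of the 6 libraries alone). Over the alternatives its adjusted p ranged from 5.24e-08, with no filter on low counts, to 0.702. WT mice given CITCO had 33.8 ± 22.5 CPM of Bcl6 and hCAR/hPXR mice 67.7 ± 15.8 CPM (SD, n = 3). Hhex, with 38.1 ± 13.02 CPM in WT corn oil and 54.7 ± 27.9 CPM in Car KO/hPXR, overlapped (SD, n = 3).

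Genes of the growth hormone pathway, which sets sex-specific expression in mouse liver, were called in no case. Of 19 male-biased liver genes tested, 5 were higher and 14 lower, with a median of -0.23 and 4 lower at an unadjusted p under 0.05. Leaving out Car KO/hPXR replicate 2 or WT corn oil replicate 1 took the median to -0.49 or -0.39, and leaving out Car KO/hPXR replicate 1 or WT corn oil replicate 2 took it to -0.13 in both cases. Mup21, a major urinary protein, was at a log2 fold change of -1.001 ± 0.32 (adjusted p = 0.637). Elovl3, a fatty acid elongase, stood at 145, 210 and 136 CPM in WT corn oil and at 38.1, 111 and 126 CPM in Car KO/hPXR (adjusted p = 0.732). Its level with CITCO was 76.3 ± 18.0 CPM in WT and 119 ± 27.9 CPM in hCAR/hPXR mice (SD, n = 3). Igf1 codes for insulin-like growth factor 1. It stood at 1054, 1152 and 1104 CPM in WT corn oil and at 815, 854 and 755 CPM in Car KO/hPXR. These did not overlap, for a log2 fold change of -0.45 ± 0.15 (adjusted p = 0.667). Of 20 female-biased genes 5 were tested, 2 higher and 3 lower. Cish, a feedback inhibitor of STAT5 signalling singled out after its values were seen, had the lowest adjusted p of the genes not called (0.0987): it stood at 4.93, 2.12 and 1.21 CPM in WT corn oil and at 30.5, 9.18 and 12.3 CPM in Car KO/hPXR. Its log2 fold change was 2.56 ± 0.49, against 46.5 ± 8.12 CPM in WT mice given CITCO and 3.46 ± 0.635 CPM in hCAR/hPXR mice (SD, n = 3).

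Lipid genes had no called member against WT corn oil. Of 22 fatty acid synthesis genes tested, 20 were higher and 2 lower, with a median log2 fold change of 0.39 against 0.0003 over all genes, and 5 higher at an unadjusted p under 0.05. The median of this list was 0.78 for Car KO/hPXR against WT CITCO and -0.36 for WT CITCO against WT corn oil. Khk, the fructokinase, stood at 479, 599 and 629 CPM in WT corn oil and at 1027, 733 and 924 CPM in Car KO/hPXR, without overlap (log2 fold change 0.65 ± 0.16, adjusted p = 0.292, 0.0123 with DESeq2 and up to 0.702 in the other alternatives). Acly, which supplies cytosolic acetyl-CoA, stood at 99.0, 207 and 224 CPM in WT corn oil and at 444, 215 and 342 CPM in Car KO/hPXR, with overlap (0.93 ± 0.27, adjusted p = 0.491). Against WT CITCO, Acly was called (log2 fold change 1.47 ± 0.28, adjusted p = 0.0304), and Khk was not (0.75 ± 0.16, adjusted p = 0.0607). Of 25 genes of cholesterol synthesis and uptake, 21 were higher and 4 lower (median 0.17). Fdps, which makes farnesyl diphosphate, stood at 102, 131 and 145 CPM in WT corn oil and at 207, 173 and 158 CPM in Car KO/hPXR. These libraries did not overlap, with a log2 fold change of 0.52 ± 0.17 (adjusted p = 0.642). Of 30 genes of the fasting response and fatty acid oxidation, 3 were higher and 27 lower (median -0.17, 3 lower at an unadjusted p under 0.05). The median was -0.085 with 9 higher and 21 lower without Car KO/hPXR replicate 1, and -0.26 without Car KO/hPXR replicate 2. Acot3, an acyl-CoA thioesterase, had the lowest p of the list, with 32, 10 and 12 counts in WT corn oil and 3, 4 and 2 in Car KO/hPXR (log2 fold change -2.06 ± 0.72, adjusted p = 0.712). Angptl4, a lipoprotein lipase inhibitor, stood at 116, 98.7 and 105 CPM in WT corn oil and at 72.4, 65.1 and 71.5 CPM in Car KO/hPXR (log2 fold change -0.61 ± 0.22, adjusted p = 0.732). WT corn oil replicate 1 was the lowest of its group for both Khk and Acly. Without it the median of the fatty acid synthesis list was 0.15, and that of cholesterol synthesis 0.09. Without Car KO/hPXR replicate 1 these were 0.24 and 0.03.

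**Figure D5:**
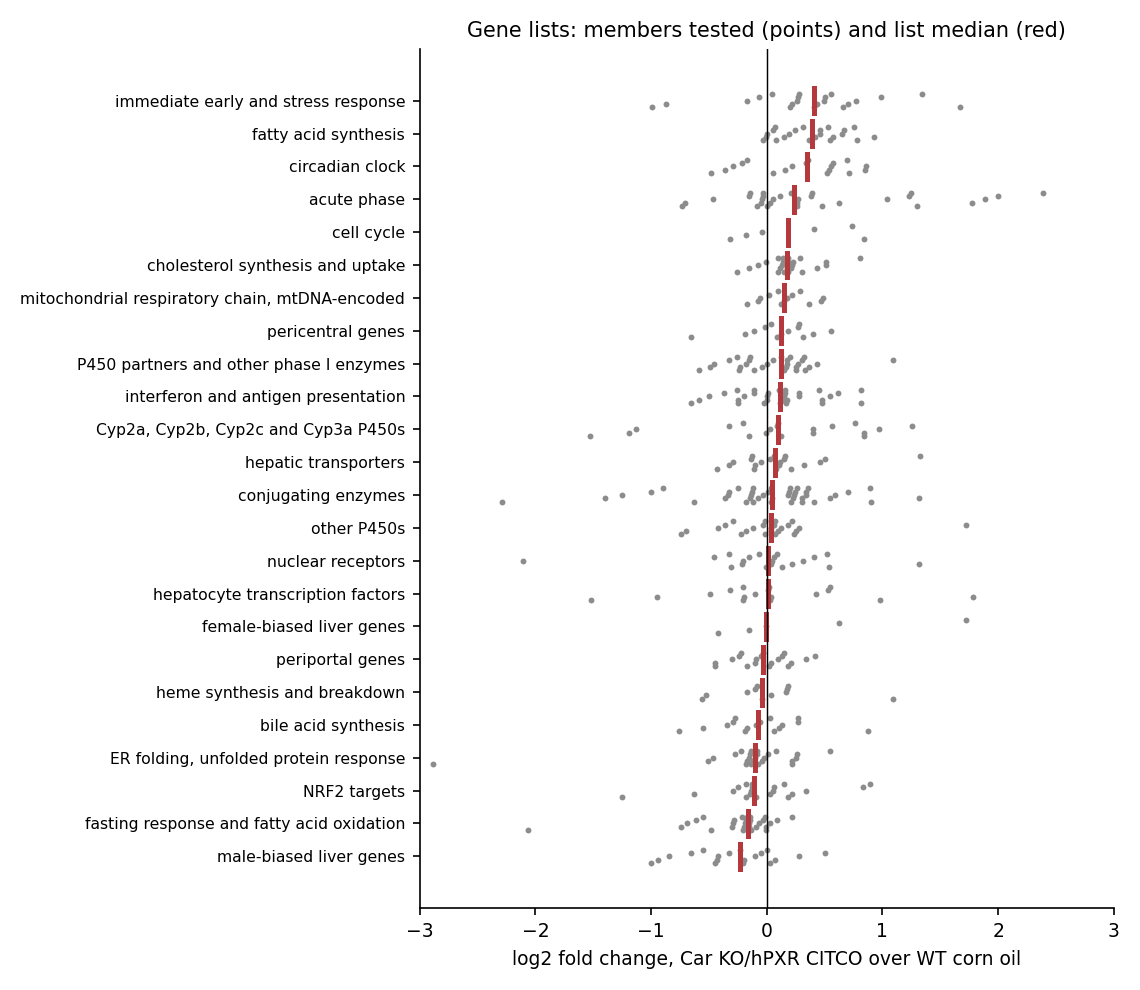
Log2 fold change of the members tested in each of 24 gene lists (grey points) and the median of each list (red line), for Car KO/hPXR CITCO over WT corn oil. Medians lie between -0.23 for male-biased genes and 0.41 for immediate early genes; 3 members beyond an absolute value of 3 are not drawn.

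Stress and inflammation genes also had no called member. Of 30 acute phase genes, 19 were higher and 11 lower (median 0.24). Serpina3m stood at 343, 295 and 251 CPM in WT corn oil and at 497, 438 and 431 CPM in Car KO/hPXR, without overlap (log2 fold change 0.62 ± 0.15, adjusted p = 0.292, 0.0166 with DESeq2 and up to 0.845 in the other alternatives). Socs3, a feedback inhibitor of cytokine signalling, had 9, 2 and 1 counts in WT corn oil and 8, 12 and 10 in Car KO/hPXR (log2 fold change 1.78 ± 0.58, adjusted p = 0.637). Saa1, the serum amyloid gene, stood at 99.9, 53.6 and 18.1 CPM in WT corn oil and at 185, 381 and 82.1 CPM in Car KO/hPXR, which overlapped. Its level varied widely in the other mice given CITCO, at 2321, 1828 and 78.1 CPM in WT and 6565, 1075 and 1830 CPM in hCAR/hPXR libraries. Of 21 immediate early and stress genes, 17 were higher and 4 lower (median 0.41). The neutrophil chemokine Cxcl1 was at a log2 fold change of 1.67 ± 0.49 (adjusted p = 0.491). Of 18 clock genes, 13 were higher and 5 lower (median 0.35, 5 higher at an unadjusted p under 0.05). Dbp differed by a log2 fold change of 0.71 ± 0.20 (adjusted p = 0.486), from 66.7 ± 9.34 CPM in WT corn oil to 109 ± 19.1 CPM in Car KO/hPXR. With CITCO it was at 103 ± 8.63 CPM in WT and 55.8 ± 15.8 CPM in hCAR/hPXR mice (SD, n = 3). The time of day at which the mice were killed is not given by group, and its part was not tested. Medians were 0.11 for 31 interferon and antigen presentation genes, -0.10 for 25 ER folding genes and -0.11 for 20 NRF2 targets. Of the ER folding genes, 7 were higher and 18 lower. Derl3, which takes part in the degradation of misfolded proteins, had the lowest p of them, with 10, 30 and 9 counts in WT corn oil and 0, 4 and 1 in Car KO/hPXR, without overlap (log2 fold change -2.88 ± 0.82, unadjusted p = 0.00245, adjusted p = 0.486). Xbp1, a transcription factor of the same response, was at 0.55, and of the NRF2 targets Gclc was at -0.63 and Gstm3 at 0.89, each uncalled.

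No zonation or proliferation gene was called. The 13 pericentral genes split into 9 higher and 4 lower (median 0.12) and the 19 periportal genes into 9 and 10 (median -0.03). Glul, glutamine synthetase of the cells around the central vein, stood at 1065, 994 and 1007 CPM in WT corn oil and at 1508, 1341 and 1203 CPM in Car KO/hPXR (log2 fold change 0.40 ± 0.21, adjusted p = 0.887). Of 25 cell cycle genes 6 were tested, 3 higher and 3 lower. Pcna, the sliding clamp of DNA replication, stood 0.41 higher on the log2 scale (adjusted p = 0.966), and Mki67 had 8 counts over the WT corn oil libraries and 1 over the Car KO/hPXR libraries, too few for the test. The imprinted RNA Meg3 was likewise under the filter, with 8 and 9 counts. Igfbp1 overlapped (log2 fold change -0.03, 95% interval -0.75 to 0.69). Of the 13 mitochondrially encoded respiratory chain genes, 10 were higher and 3 lower (median 0.15). Without Car KO/hPXR replicate 2 this turned to 5 higher and 8 lower (median -0.087), and without WT corn oil replicate 1 all 13 were higher (0.24).

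In bulk tissue a smaller number of cells of a type and less RNA per cell cannot be told apart. Of 11 Kupffer cell markers, 9 were higher and 2 lower. None had an unadjusted p under 0.05, and the 1 marker without overlap was lower in Car KO/hPXR. The 11 markers summed to 317 to 391 CPM in WT corn oil and 410 to 442 CPM in Car KO/hPXR, without overlap. In mice given CITCO the sums were 567, 528 and 375 CPM for WT and 622, 520 and 495 CPM for hCAR/hPXR. The part of Kupffer cells in the inflammation lists was not tested. Lymphocyte markers summed to 19.7 to 25.98 CPM and 26.3 to 38.4 CPM, of which 2 of 11 were tested. Endothelial (284 to 301 against 279 to 298 CPM), stellate (274 to 286 against 215 to 300 CPM), neutrophil (33.8 to 56.4 against 50.1 to 53.4 CPM) and red cell sums (2298 to 3882 against 2138 to 3424 CPM) overlapped. The defining adipocyte gene Adipoq had 2 counts in all 6 libraries together.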

How the data were processed

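Liver RNA of 12 mice, 3 per group, was made into 3' QuantSeq libraries, and groups were taken from the labels. The authors trimmed reads, aligned them with STAR 2.5.2 to Ensembl GRCm38.89, ran RSEM 1.3 and deposited its expected counts, not normalized, together with values on a log2 scale deposited for 17859 genes, made by DESeq2's variance-stabilising transformation. Whether counting used strand is not given in the sources used here. Expected counts were rounded to whole numbers (13.9% of values of tested genes were not whole). Counts were analysed in R 4.3.3 with edgeR 4.0.16 (filterByExpr, TMM, quasi-likelihood F test with a mean for each of the 4 groups, all 12 libraries in 1 fit; Benjamini-Hochberg adjustment). A gene was called at an adjusted p under 0.05 and a fold change over 1.5. F statistics gave the standard errors and 95% intervals. Libraries held 1167008 to 2341557 counts; floors of 3 counts per library cover counting error only. The methods give 3 mice per group. Within a group no pair of libraries agreed within sampling noise.

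The comparison, members, gene lists and tests were chosen with earlier results of these data known. Genes were named by rule: the targeted genes and called genes within 500 kb, the 20 called genes with the largest change in each direction without overlap, called list members, up to 3 genes with the lowest p of each list without a called member, and a set of 16 further genes; Cyp2c54, Cyp2c37, Cyp2c67, Cyp2c70, Cyp2a5, Cyp3a13, Cish, Pcp4l1 and Rpl27-ps1 fall outside it, and 1 gene that the rule names is not reported here. Coordinates are from GENCODE M21 on GRCm38, promoter sequences from RefSeq on GRCm38.p6. The script was tested on simulated data. Alternatives were RLE size factors, DESeq2 1.42.0, a fit of the 6 libraries, no filter, a filter of 10 counts in 3 libraries and a mean of 20, a replicate block, thinning to the smallest library, limma 3.58.1 on the deposited log2 values, leaving out each library, and calls without a fold threshold.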

Additional observations from a re-analysis of the deposited data

How the results depend on the processing

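Nr1i2, Nr1i3 and Cyp2c50 were called under all 14 alternatives and Tomm40l under 6. The count of 4 called genes stood at 4 with RLE size factors and with no minimum fold change, but was 12 with DESeq2 and 95 without the filter on low counts. In the last setting edgeR gave a gene's own spread no weight (infinite prior degrees of freedom, against 10.1). Leaving out each library in turn gave 3 to 6 calls. The replicate numbers do not pair the libraries (correlations of deviations -0.002, 0.028 and 0.054), and a replicate block gave 5 calls, the fifth being Cish (adjusted p = 0.0179). Over its alternatives the adjusted p of Cish ranged from 1.83e-06, without the filter, to 0.649. Side comparisons with DESeq2 and without the filter gave 67 and 227 calls for Car KO/hPXR against WT CITCO, 44 and 179 for WT CITCO against WT corn oil, and 99 and 233 for hCAR/hPXR against Car KO/hPXR. Leaving out 1 library gave ranges of 10 to 36, 6 to 21 and 10 to 53 calls for these. Of 690 alternative values of the named genes, 646 kept direction and call, and 9 changed sign or came to 0, all when a library was left out: Cyp2c29 ranged from -0.075 to 0.43, Cyp2c67 from -0.39 to 0.038, Cyp2c70 from -0.071 to 0.24, Cyp2b10 from -0.54 to 3.69, Igfbp1 from -0.33 to 0.32 and Rpl27-ps1 from 0 to 5.84. Of 336 alternative list medians, 298 moved by less than the spread between libraries. The median moved to 0.18 and 0.18 for conjugating enzymes and to 0.055 and 0.037 for acute phase genes in the fit of 6 libraries and under the stricter filter. Without the filter it moved to -0.12 for hepatocyte transcription factors, 0.74 for female-biased genes and 0.023 for pericentral genes, which were at 0.18 under the stricter filter and 0.16 with thinned libraries. It moved to -0.0065 for periportal genes with thinned libraries and to 0.16 for immediate early genes with limma. Leaving out 1 library gave medians of -0.071 to 0.38 for Cyp2a to Cyp3a genes, 0.044 to 0.16 for phase I partners, 0.025 to 0.21 for conjugating enzymes, -0.032 to 0.073 for transporters, -0.17 to 0.019 for bile acid synthesis, -0.13 to 0.037 for transcription factors, 0.048 to 0.21 for pericentral, -0.088 to 0.12 for periportal, 0.19 to 0.47 for immediate early, -0.0999 to -0.023 for NRF2 and -0.12 to 0.038 for heme genes. The same range was -0.49 to -0.13 for male-biased, -0.30 to 0.53 for female-biased, -0.26 to -0.085 for fasting response, 0.15 to 0.56 for fatty acid synthesis, 0.034 to 0.28 for cholesterol, -0.14 to -0.018 for ER folding, 0.12 to 0.33 for acute phase, 0.23 to 0.42 for clock, 0.064 to 0.14 for interferon, -0.087 to 0.26 for mitochondrially encoded, 0.02 to 0.31 for cell cycle, -0.063 to 0.06 for other P450 and -0.031 to 0.066 for nuclear receptor genes. Causes of these shifts were not tested. Depth limits genes near the floor of 1.34 to 2.5 CPM.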
